A study of Mus musculus with 4 samples.

Results

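The 10 genes that encode the D, E, A and B type cyclins of the mouse, Ccnd1, Ccnd2, Ccnd3, Ccne1, Ccne2, Ccna1, Ccna2, Ccnb1, Ccnb2 and Ccnb3, were followed by RNA-seq in spermatogonial stem cell (SSC) cultures. They were chosen by name from the 55421 genes of the deposited table, and all 10 were found there. For the comparison they were divided into the germline cyclins Ccna1 and Ccnb3 (2 genes) and the cyclins of the mitotic cycle (8 genes). The cultures were primary spermatogonia of neonatal CD1 mice, grown on mitotically arrested mouse embryonic fibroblast (MEF) feeders, whose RNA is in every library. In the Veh group (2 libraries) they were kept in complete SSC medium, which holds GDNF and FGF2. In the NRRA group (2 libraries) they received for 2 days a nutrient restriction medium of 90% Earle's balanced salt solution (EBSS) and 10% SSC medium with 100 nM retinoic acid (RA). Nutrients, growth factors and RA therefore changed together, and their parts in any difference between the groups cannot be told apart.

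Cyclins bind cyclin-dependent kinases (CDKs), switch them on and help to select their substrates. D-type cyclins pair with CDK4 and CDK6 and link growth factor signals to phosphorylation of the RB proteins in G1. E-type cyclins pair with CDK2 at the entry into S phase, A-type cyclins act with CDK2 and CDK1 in S and G2, and B-type cyclins act with CDK1 at mitosis. In the male germ line cyclin A1, encoded by Ccna1, is a cyclin of spermatocytes that is needed for the first meiotic division of the male. Cyclin B3, encoded by Ccnb3, is found in germ cells that enter meiotic prophase, and in oocytes it is required for anaphase of the first division.

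The libraries held between 28022265 and 31604769 counts assigned to genes, so that 3 counts corresponded to between 0.0920 and 0.110 CPM (counts scaled to the TMM-adjusted size of the library). All intervals of counts cover counting error only. Stra8, the RA target that licenses meiotic entry, had 9.61 and 10.1 CPM in Veh and 1862 and 1851 CPM in NRRA. Markers of undifferentiated spermatogonia summed to between 1318 and 1337 CPM in Veh and to 268 and 265 CPM in NRRA, with 8 of 8 called lower, and 5 of 5 markers of differentiating spermatogonia and RA response were called higher. The germ cell markers summed to 2149 and 2215 CPM in Veh and to 2184 and 2180 CPM in NRRA, with 4 higher, 5 lower and 1 not called of 10. Fibroblast feeder markers fell in 13 of 16 cases and rose in 2, their sum going from 11384 and 11244 CPM to 8539 and 8286 CPM, and none was at 0. Beside these marker counts, 27.9% of all genes tested were called higher and 28.4% were called lower. The Sertoli cell markers summed to at most 39.3 CPM, with Fshr at 0 in all libraries, and those of Leydig and peritubular cells to at most 106 CPM. Fewer cells of a type and less RNA per cell cannot be told apart in such bulk libraries. The labels name no separate cultures or mice for the libraries, while the study states that its sequencing used 2 independent biological replicates. The p-values measure only the spread between these samples.

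In NRRA the cyclin that changed most was the germline Ccna1, which rose about 6-fold from a very low level, while every mitotic cyclin stayed within a log2 fold change of 0.61 in either direction. Both germline cyclins were called higher, although the call of Ccnb3 was lost with DESeq2 (adjusted p 0.189) and without NRRA replicate 2 (0.153) or Veh replicate 2 (0.257). Of the 8 mitotic cyclins, 4 were higher (Ccnd1, Ccne1, Ccne2 and Ccna2), 3 were lower (Ccnd2, Ccnd3 and Ccnb1), and Ccnb2 was not called. The 10 cyclins thus gave 6 higher and 3 lower calls (adjusted p under 0.05 in edgeR's quasi-likelihood test, Benjamini-Hochberg adjustment across the 20232 genes tested). The background to these counts is broad, because 27.9% of those genes were called higher and 28.4% were called lower. All 10 cyclins passed the filter on low counts. The median log2 fold change was 0.17 over the 10 cyclins, 0.083 over the 8 mitotic cyclins and 0.00030 over all genes tested. In 9 of the 10 the Veh and NRRA libraries did not overlap in CPM, as was also true of 76.7% of all genes tested. With scaling to library size only, the numbers of higher and lower genes moved from 5654 and 5752 to 6962 and 4593.

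**Figure D1:**
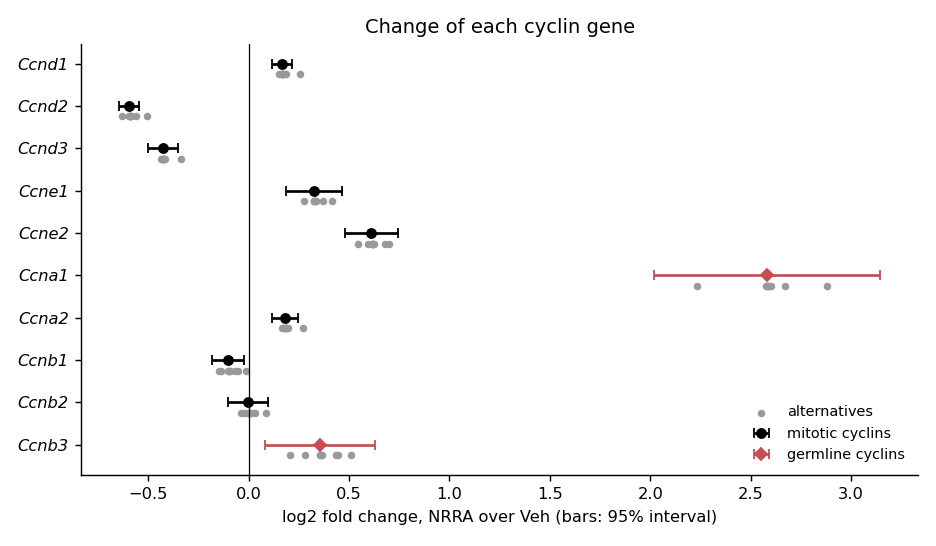
Log2 fold change (NRRA over Veh, x axis) of each cyclin gene (y axis), with circles for mitotic and diamonds for germline cyclins, bars for the 95% interval of the edgeR fit, and grey points for the 9 alternative fits of each gene. Ccna1 lies at 2.58, far to the right of the others, which span -0.59 (Ccnd2) to 0.61 (Ccne2), and the alternatives of Ccnb2 lie on both sides of 0.

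The D-type cyclins, which take the growth factor signal to CDK4 and CDK6, were the most abundant class, and their members moved in opposite directions. Ccnd2 and Ccnd3 fell and Ccnd1 rose slightly. Ccnd2 (GRCm38 chr6:127125162-127152193, minus strand), the D-type cyclin best known from spermatogonia and the ovary, had 1000 and 1050 CPM in Veh and 683 and 677 CPM in NRRA. Both NRRA libraries lay well below both Veh libraries. The fall was 33.7%, a log2 fold change of -0.59 (95% interval -0.64 to -0.54, SE 0.024, adjusted p 3.24e-17). Ccnd3 (chr17:47505051-47599691, plus strand), a D-type cyclin with broad expression, had 121 CPM in both Veh libraries and 90.7 and 89.3 CPM in NRRA. The groups were again separate, and the log2 fold change was -0.43 (95% interval -0.50 to -0.35, SE 0.037, adjusted p 1.91e-10). Ccnd1 (chr7:144929931-144939925, minus strand), the classic growth factor responsive cyclin, which fibroblasts also express, had 514 and 513 CPM in Veh and 584 and 569 CPM in NRRA. That was a small rise without overlap of the groups, with a log2 fold change of 0.17 (95% interval 0.12 to 0.22, SE 0.024, adjusted p 1.27e-06). The fibroblast feeder markers had a median log2 fold change of -0.30 over the 16 genes, and the part of the feeders in the levels of the D-type cyclins was not tested. The part of the undifferentiated spermatogonia, whose markers fell far more, was not tested either.

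The makeup of the class changed with these shifts. Levels of different genes are compared below in CPM per kilobase (kb) of exon, with the union of all annotated exons as length. This union was 8.775 kb for Ccnd3, whose longest transcript has 3858 bases. For Ccnb2 it was 1.531 kb, and the longest transcript has 1531 bases. Orders between genes and shares within a class therefore depend on this length, and other lengths were not used. By exon union Ccnd1 and Ccnd2 stood level in Veh, at 109 ± 0.174 and 109 ± 3.76 CPM per kb (SD, n = 2), and could not be ordered. Their exon unions are 4.709 and 9.409 kb and their longest transcripts 3740 and 6330 bases, so another length could order them. In NRRA Ccnd1 stood above Ccnd2, at 122 ± 2.18 against 72.2 ± 0.484 CPM per kb (SD, n = 2). Ccnd1 accounted for 47.6% and 46.5% of the D-type total per kb in Veh and for 59.9% and 59.6% in NRRA. The share of Ccnd2 was 46.4% and 47.6% in Veh and 35.1% and 35.4% in NRRA. Ccnd3 held a minor share throughout, between 5.88% and 6.01% in Veh and at most 5.01% in NRRA. The D-type sum went from 232 ± 3.58 to 205 ± 2.78 CPM per kb (SD, n = 2), a drop of 11.6%. The stacked bars of the D-type cyclins show the change as a shorter Ccnd2 segment above a slightly taller Ccnd1 segment.

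**Figure D2:**
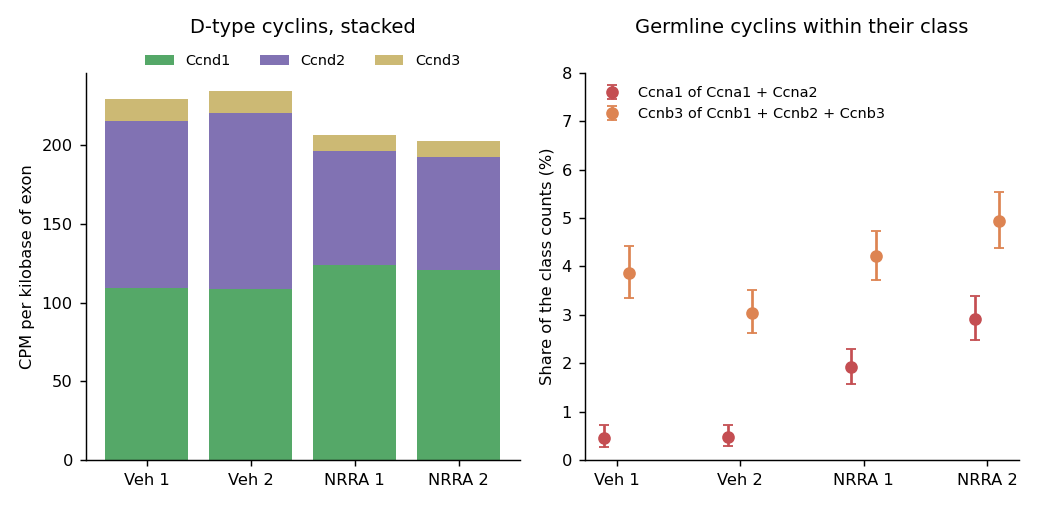
Left, CPM per kilobase of exon of the 3 D-type cyclins stacked for each library (x axis), with Ccnd3 as the thin segment on top. Right, share (%) of Ccna1 in the A-type counts and of Ccnb3 in the B-type counts of each library with 95% exact binomial intervals, where Ccna1 goes from 0.458% and 0.466% in Veh to 1.91% and 2.91% in NRRA.

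The E-type cyclins, which activate CDK2 at the G1/S transition, both rose. Ccne2 (chr4:11191351-11204779, plus strand) had 26.3 and 26.9 CPM in Veh and 38.8 and 42.5 CPM in NRRA. With a log2 fold change of 0.61 (95% interval 0.48 to 0.74, SE 0.065, adjusted p 7.49e-09) it had the largest rise of the mitotic cyclins. Ccne1 (chr7:38097984-38107534, minus strand) had 25.7 and 24.1 CPM in Veh and 31.4 and 31.1 CPM in NRRA. Its rise was smaller but also without overlap, with a log2 fold change of 0.33 (95% interval 0.19 to 0.47, SE 0.067, adjusted p 0.000167). Per kb, Ccne1 stood above Ccne2 in Veh (9.36 and 7.61 CPM per kb), whereas in NRRA the genes overlapped (11.7 and 11.6 CPM per kb). The E-type sum rose from 17.0 ± 0.306 to 23.4 ± 0.658 CPM per kb (SD, n = 2), or by 37.7%, the greatest relative change of the 4 class sums.

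Among the mitotic A-type and B-type cyclins the changes were small. Ccna2 (chr3:36564865-36572150, minus strand), the cyclin A of S phase and G2 in somatic and mitotic germ cells, had 152 and 151 CPM in Veh and 170 and 173 CPM in NRRA. The groups did not overlap, and the log2 fold change was 0.18 (95% interval 0.11 to 0.25, SE 0.032, adjusted p 2.38e-05). Ccnb1 (chr13:100778650-100786570, minus strand), the main partner of CDK1 in mitosis, had 123 and 129 CPM in Veh and 121 and 113 CPM in NRRA. Its log2 fold change of -0.10 (95% interval -0.18 to -0.021, SE 0.039, adjusted p 0.0293) was barely past the threshold. The call was lost with DESeq2 (adjusted p 0.188), with scaling to library size only (adjusted p 0.831), without NRRA replicate 2 (adjusted p 0.386) and without Veh replicate 2 (adjusted p 0.209). Ccnb2 (chr9:70407692-70421547, minus strand), the second mitotic cyclin B, had 59.6 and 60.8 CPM in Veh and 61.7 and 58.5 CPM in NRRA. It was the only cyclin with overlapping groups. No difference was called (log2 fold change -0.0018, adjusted p 0.979), and the 95% interval of -0.10 to 0.097 leaves room for changes of that size in either direction. The sum of the B-type cyclins was 70.6 ± 1.38 CPM per kb in Veh and 68.9 ± 2.66 CPM per kb in NRRA (SD, n = 2), and that of the A-type cyclins was 37.4 ± 0.227 and 44.3 ± 1.19 CPM per kb (SD, n = 2).

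The germline cyclin Ccna1 (chr3:55045469-55055501, minus strand) was the least abundant of the 10 in Veh. It had 19 and 21 counts in the Veh libraries and 108 and 156 counts in the NRRA libraries, or 0.700 and 0.705 CPM against 3.31 and 5.18 CPM. The Veh libraries lay close together, and both NRRA libraries lay well above them while differing from each other. The rise was 5.99-fold (95% interval 4.05 to 8.85), a log2 fold change of 2.58 (SE 0.27, adjusted p 8.00e-09). It was the only cyclin of the 10 that rose at least 2-fold, a call made for 6.29% of all genes tested, and 1.01% of the genes tested had a larger log2 fold change. When each library was left out in turn, the log2 fold change of Ccna1 lay between 2.23 and 2.88 and its call was kept. The level remained low in absolute terms. In NRRA it was 2.31 CPM per kb, against 42.0 CPM per kb for Ccna2.

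Ccnb3 (chrX:6979652-7041619, minus strand), the meiotic cyclin B, changed far less than Ccna1. It had 199 and 177 counts in Veh and 262 and 269 counts in NRRA, or 7.33 and 5.94 CPM against 8.04 and 8.93 CPM. The groups did not overlap, although the gap between them was smaller than the gap between the Veh libraries. The log2 fold change was 0.36 (95% interval 0.084 to 0.63, SE 0.13, adjusted p 0.0240). In the fits that lost this call the log2 fold change was 0.36 with DESeq2, 0.28 without NRRA replicate 2 and 0.21 without Veh replicate 2.

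Each germline cyclin was then set against the mitotic cyclins of its own class within the same library, where depth and scaling cancel. Ccna1 made up 0.458% (95% exact binomial interval 0.276 to 0.715) and 0.466% (0.289 to 0.711) of the A-type counts in Veh. In NRRA its share was 1.91% (1.57 to 2.30) and 2.91% (2.48 to 3.39). The log2 ratio of Ccna1 to Ccna2 was 2.35 higher in NRRA (5.10-fold), with both NRRA libraries above both Veh libraries. The exact two-sided permutation p was 0.333, which is the smallest value that 2 against 2 libraries can give. Ccnb3 made up 3.87% (3.36 to 4.43) and 3.04% (2.61 to 3.51) of the B-type counts in Veh and 4.21% (3.72 to 4.74) and 4.94% (4.38 to 5.55) in NRRA. The interval of Veh replicate 1 overlapped those of both NRRA libraries. The log2 ratio of Ccnb3 to the sum of Ccnb1 and Ccnb2 was 0.43 higher in NRRA (1.34-fold), and the exact permutation p was again 0.333.

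The order of the 10 cyclins by level per kb was similar at its top and bottom in both groups. In Veh, Ccnd1 and Ccnd2 came first, followed by Ccnb2 (39.3 CPM per kb), Ccna2 (37.0), Ccnb1 (29.8), Ccnd3 (13.8), Ccne1, Ccne2, Ccnb3 (1.45) and Ccna1 (0.383 CPM per kb). Apart from Ccnd1 and Ccnd2, no neighbours in this order overlapped. In NRRA the order was Ccnd1, Ccnd2, Ccna2, Ccnb2 (39.3 CPM per kb), Ccnb1 (27.8), Ccne1, Ccne2, Ccnd3 (10.3), Ccna1 (2.31) and Ccnb3 (1.86 CPM per kb). Here the neighbours Ccne1 and Ccne2 overlapped, as did Ccna1 and Ccnb3. By exon union, Ccnd3 thus went from above the E-type cyclins to below them, and Ccna1 came up to the level of Ccnb3. The exon union of Ccnd3 (8.775 kb) is far longer than its longest transcript (3858 bases). Its crossing of the E-type cyclins may therefore not hold with another length, which was not tested.

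**Figure D3:**
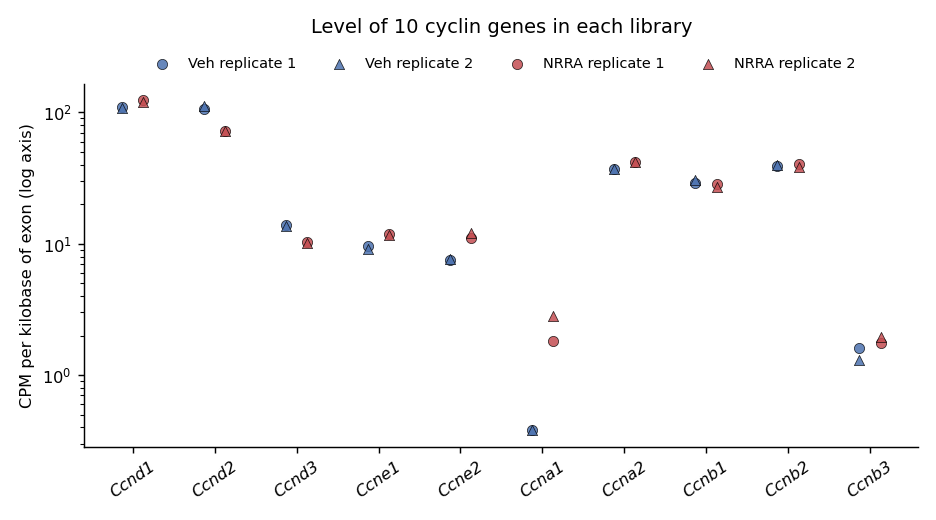
Level of each of the 10 cyclin genes (x axis) in CPM per kilobase of exon on a log axis, with circles for replicate 1 and triangles for replicate 2 of Veh (blue) and NRRA (red). The levels run from 0.383 (mean of Ccna1 in Veh) to 122 CPM per kb (mean of Ccnd1 in NRRA), and Ccna1 shows the widest distance between the groups.

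The stretches before the start sites of the germline cyclins and of the mitotic B-type cyclins are printed to let them be compared, since these genes moved differently in the same libraries. RefSeq promoter windows (GRCm38.p6, 250 bases before to 50 bases after the start) matched 6 of the 10 cyclins. Of each window the part before the start is shown 5′ to 3′ along the gene, without the bases that GENCODE M21 places in an exon of that gene. All 4 genes lie on the minus strand, and the stretches are chr3:55055056-55055251 for Ccna1, chrX:7041620-7041869 for Ccnb3, chr13:100786571-100786736 for Ccnb1 and chr9:70421555-70421804 for Ccnb2. Starts are those of RefSeq. The Ccna1 stretch lies inside the GENCODE M21 gene (chr3:55045469-55055501), whose outermost start is thus farther upstream. Capitals mark the CCAAT box, which binds the factor NF-Y (CCAAT, or ATTGG on the other strand), and the core of the cell cycle homology region (CHR, TTTGAA), an element of many genes expressed in G2 and mitosis.
Ccna1: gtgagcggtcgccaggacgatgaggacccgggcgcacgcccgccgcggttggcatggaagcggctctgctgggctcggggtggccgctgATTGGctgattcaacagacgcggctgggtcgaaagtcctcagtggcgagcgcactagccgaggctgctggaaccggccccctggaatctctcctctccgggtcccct
Ccnb3: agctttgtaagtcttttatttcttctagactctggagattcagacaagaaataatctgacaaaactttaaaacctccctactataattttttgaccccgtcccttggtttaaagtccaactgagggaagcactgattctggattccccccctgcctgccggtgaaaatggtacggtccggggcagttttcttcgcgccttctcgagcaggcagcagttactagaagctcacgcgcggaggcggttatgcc
Ccnb1: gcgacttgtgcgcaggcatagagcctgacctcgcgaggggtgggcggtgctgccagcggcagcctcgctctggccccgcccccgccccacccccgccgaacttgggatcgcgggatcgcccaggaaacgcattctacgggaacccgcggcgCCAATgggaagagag
Ccnb2: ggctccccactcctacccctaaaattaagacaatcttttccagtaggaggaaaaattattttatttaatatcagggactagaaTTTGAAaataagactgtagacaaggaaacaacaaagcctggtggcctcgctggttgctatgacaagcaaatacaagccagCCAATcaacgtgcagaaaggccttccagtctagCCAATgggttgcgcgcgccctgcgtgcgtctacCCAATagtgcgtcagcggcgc

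In the windows of 300 bases, searched on both strands, the CCAAT box was found 3 times in Ccnb2 (87, 54 and 21 bases before the start), in 2 places in Ccnb1 (99 and 67 bases before the RefSeq start, the second within the GENCODE exon and so not printed) and 1 time in Ccna1, on the reverse strand 107 bases before the start. It was also found 1 time in a window of Ccnd3 (108 bases before the start), which is not printed. In the Ccnb3 window these letters were not found. At least 1 CCAAT box was present in 37.4% of all 32851 RefSeq windows of this length, at least 2 in 11.7% and at least 3 in 3.37%. The CHR core was found in Ccnb2 167 bases before the start and again at base 5 after it, and 17.9% of all windows held it. The motif CNCCTCAG, which is tied to the transcription factor STRA8, was in the Ccne1 window (reverse strand, 83 bases before the start) and not in the 4 printed genes, and 7.94% of all windows held it. No match overlapped another motif, and a match describes the letters only. The genes with a CCAAT box in a printed stretch included the strongest riser, Ccna1, as well as Ccnb1 and Ccnb2, which had log2 fold changes near 0.

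The 4 kinases that the cyclins activate did not move as a block. Cdk4, the partner of the D-type cyclins, fell from 282 and 279 CPM in Veh to 173 and 170 CPM in NRRA, a log2 fold change of -0.71 (SE 0.029, adjusted p 4.30e-17). Cdk6, the other D-type partner, rose from 89.3 and 95.4 to 116 and 113 CPM (log2 fold change 0.31, adjusted p 1.70e-07). Cdk2, the partner of the E-type and A-type cyclins, rose from 68.5 and 64.6 to 71.99 and 76.8 CPM (log2 fold change 0.16, adjusted p 0.00491). Cdk1 had 42.1 and 43.5 CPM in Veh and 40.2 and 38.1 CPM in NRRA and was not called (log2 fold change -0.13, adjusted p 0.0536). Both D-type kinases thus changed, in opposite directions, as did the D-type cyclins themselves.

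Of the CDK inhibitors 3 of 7 rose and 4 fell, where 27.9% of all genes tested rose and 28.4% fell, with a median log2 fold change of -0.35. Cdkn2d, which encodes the INK4 inhibitor p19 of CDK4 and CDK6, had the largest rise, from 3.72 and 5.54 CPM in Veh to 15.3 and 16.0 CPM in NRRA (log2 fold change 1.75). Cdkn1c (p57, 0.99) and Cdkn2c (p18, 0.86) rose as well. Cdkn2b (p15) had the largest fall, from 88.5 and 85.2 to 50.5 and 54.95 CPM (log2 fold change -0.72), and Cdkn1b (p27, -0.52), Cdkn1a (p21, -0.48) and Cdkn2a (-0.35) fell too. The Cdkn2 genes therefore split, with Cdkn2c and Cdkn2d higher and Cdkn2a and Cdkn2b lower. Of 10 genes that activate CDKs or control their inhibitory phosphorylation, 3 rose and 5 fell (median log2 fold change -0.14). The risers were Cdc25c (0.76) and Cdc25b (0.22), phosphatases that activate CDK1, and Pkmyt1 (0.72), a kinase that inhibits it. Cks1b (-0.30), Cks2 (-0.22), Cdk7 (-0.21), Cdc25a (-0.16) and Wee1 (-0.13) fell.

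The transcriptional regulators of the cyclin genes changed in both directions. In the RB and E2F family, through which D-type cyclins release the E-type cyclin genes and Ccna2, 8 of 13 genes rose and 3 fell (against 27.9% and 28.4% of all genes tested), with a median log2 fold change of 0.12. E2f5 rose most (0.36), and E2f6, which encodes a repressor, fell most (-0.76), followed by E2f3 (-0.32) and Tfdp1 (-0.09). Among 11 genes of the MuvB complex, FOXM1, the B-MYB family and NF-Y, which act on the genes of A and B cyclins, 5 rose and 3 fell (median 0.094). Lin52 (0.37), Foxm1 (0.16), Mybl2 (0.13), Nfyc (0.13) and Rbbp4 (0.11) rose. The falls were those of Nfya (-0.56), Mybl1 (-0.29) and Nfyb (-0.15). Of 12 genes of cyclin degradation, 3 rose and 4 fell (median -0.10). Ube2s (0.29) and Fzr1 (0.26), which serve the anaphase-promoting complex that destroys A and B cyclins, and Fbxw7 (0.28), the receptor for cyclin E, rose. Ambra1 (-0.31), whose product targets D-type cyclins, Skp2 (-0.27), Ccnf (-0.22) and Cul3 (-0.16) fell.

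Outside the 4 classes, 8 of 16 further cyclin and cyclin-like genes rose and 4 fell (27.9% and 28.4% over all genes tested), with a median log2 fold change of 0.13. Ccno, which encodes cyclin O of multiciliated cells, had 1.14 and 0.906 CPM in Veh and 4.88 and 5.31 CPM in NRRA. Its log2 fold change of 2.31 (SE 0.22, adjusted p 9.27e-10) was, of these cyclins, the nearest in size to that of Ccna1, and it too started from about 1 CPM. The other risers were Spdya (1.26), Ccnjl (1.06), Ccny (0.39), Ccng2 (0.36), Cntd1 (0.28), Ccnk (0.25) and Ccnj (0.15). Ccnl1, a cyclin tied to splicing, had the largest fall (-0.20), and Ccng1 (-0.20), Ccnt1 (-0.18) and Ccni (-0.09) fell by similar or smaller amounts.

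**Figure D4:**
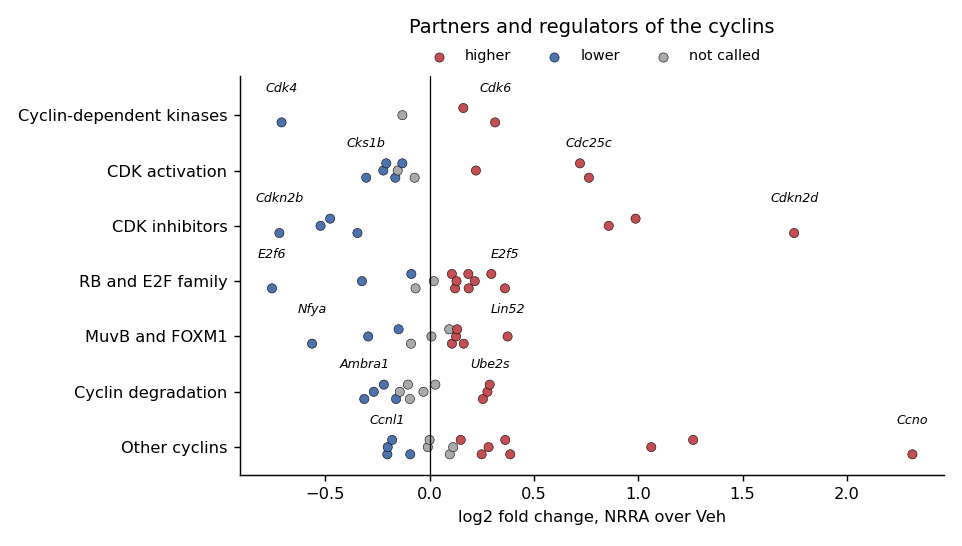
Log2 fold change (NRRA over Veh, x axis) of the tested genes in 7 lists of cyclin partners and regulators (y axis), 1 point per gene, coloured by its call, with the lowest and highest gene of each list named above its row. Cdk4 lies at -0.71 and Cdk6 at 0.31, the CDK inhibitors fall into 4 lower and 3 higher genes, and Ccno lies farthest to the right at 2.31.

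The genes whose pattern over the 4 libraries was nearest to that of each germline cyclin were sought among the 16545 tested genes whose log2 CPM averaged 0 or more, by the Euclidean distance of centred log2 CPM. For Ccna1 they were Adra2b (distance 0.244), Mafa (0.291) and H2-Bl (0.337), with log2 fold changes of 2.49, 2.33 and 2.55. Ccnb3 was nearest to Gpr75 (0.0429), 4930562C15Rik (0.0432) and Gm47140 (0.0482), with log2 fold changes of 0.38, 0.33 and 0.40. With 4 libraries these distances only describe the likeness of the values.

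Sequence shared with other genes could touch some of these counts, since the strand setting of the counting is not given in the sources used here. Exons of genes on the opposite strand overlap 23.4% of the exonic bases of Ccnd1 (LTO1), 17.4% of Ccne2 (Ints8), 12.5% of Ccna2 (Exosc9), 10.1% of Ccna1 (4931419H13Rik), 7.86% of Ccnd2 (9330179D12Rik and Gm43126) and 4.11% of Ccnd3 (Bysl). The partner of Ccna1 had at most 1 count in a library, against 108 and 156 counts of Ccna1 in NRRA. LTO1 changed by a log2 fold change of 0.15 and Ccnd1 by 0.17. For Gm43126 the value was -0.47, beside -0.59 for Ccnd2, and for Bysl it was -0.47, beside -0.43 for Ccnd3. Ints8 had a value of 0.13 beside 0.61 for Ccne2, Exosc9 was not called (-0.058, beside 0.18 for Ccna2), and 9330179D12Rik, with at most 45 counts in a library, had -1.25. How far these pairs share reads was not tested. Stretches that another gene repeats with 95% identity or more over 100 bases or more made up 51.9% of the longest transcript of Ccnb1 and 18.6% of that of Ccnd3, but each of those copies had at most 26 counts in a library. Ccne1, Ccnb2 and Ccnb3 had no such overlap or copy.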

How the data were processed

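RNA was sequenced from 4 libraries, 2 Veh and 2 NRRA, grouped by sample titles. The authors deposited raw counts per gene, which the submitters' processing notes tie to STAR 2.6.1c, featureCounts 1.6.4 and mm10. The annotation release is not given in the sources used here. The labels and the study's methods name different library kits. No table entry lacked a gene name.

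Counts were tested with edgeR 4.0.16 in R 4.3.3 (filterByExpr, TMM, robust quasi-likelihood F test, Benjamini-Hochberg adjustment over 20232 genes, threshold 0.05), after a test on simulated data. The study's DESeq2 (version 1.42.0 here) was an alternative, beside other scalings, no filter, a replicate block and leaving out each library. Intervals (95%) use the fit's degrees of freedom. CPM were computed on TMM-adjusted library sizes, and per kb on the exon union of GENCODE M21, which held 55154 of 55421 identifiers. Class ratios used a prior count of 0.5. Libraries of a group differed by more than sampling noise (chi-square per degree of freedom 2.45 for Veh and 1.99 for NRRA). Their common biological coefficient of variation was 2.61%.

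The cyclins and gene lists were chosen with earlier results of these data known. Of each list of cyclin partners and regulators the largest rise and fall and the 4 kinases were named by rule, with the 3 nearest patterns of each germline cyclin, and other genes were named after their values were seen to account for small counts.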

Additional observations from a re-analysis of the deposited data

How the results depend on the processing

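Of the 10 cyclins, Ccnd1, Ccnd2, Ccnd3, Ccne1, Ccne2, Ccna1 and Ccna2 kept their direction and call in each of 9 alternatives. The log2 fold change of Ccnb1 lost its call with DESeq2 (-0.095, adjusted p 0.188) and library size only (-0.011, adjusted p 0.831), and when single libraries were left out it lay between -0.15 and -0.054. Ccnb3 lost its call with DESeq2 (0.36, adjusted p 0.189), and lay between 0.21 and 0.51 with single libraries left out. Ccnb2, not called in any of them, changed sign with DESeq2 (0.0033), library size only (0.088), no filter beyond 1 count (0.0056), without NRRA replicate 2 (0.035) and without Veh replicate 2 (0.012), and its values with single libraries left out lay between -0.036 and 0.035. The causes of these changes were not tested. Calls of higher cyclins numbered 5 to 6 and of lower cyclins 2 to 3. Over all genes, 4224 to 6962 were higher and 4298 to 5836 lower. The replicate numbers were those of the titles, while the descriptions and columns number the Veh libraries 1 higher, so fits that use the numbers depend on that choice. The numbers did not pair the libraries (correlation of deviations -0.0106). With the replicate block 5772 genes were higher and 5836 lower, and 6 and 3 cyclins, with no cyclin call changed. The log2 ratio of Ccna1 to Ccna2 was 2.04 to 2.66 higher in NRRA and that of Ccnb3 to Ccnb1 and Ccnb2 0.25 to 0.61 when single libraries were left out. Within replicate numbers 1 and 2 these differences were 2.05 and 2.65, and 0.13 and 0.73, a replicate block chosen after seeing the data. Their means of 2.35 and 0.43 equal the values without the block by construction, so they test nothing. With 2 libraries a group, the calls of Ccnb1 and Ccnb3 rest on single libraries.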
